A study of Homo sapiens and Mus musculus with 21 samples.

Results

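The genes described here are GPNMB, which encodes a transmembrane glycoprotein of lysosomes and melanosomes, and 36 genes of the lysosome and of its transcriptional control. The 37 members were chosen by name, with earlier measurements of these same libraries known. The direction of a change in GPNMB is therefore a description and carries no test. The counts of called members and the p-values of the other members also concern genes chosen in this way. They are no independent evidence about lysosomal genes as a set. All 37 were found in the human tables of 60674 genes, and the orthologs of all 37 in the mouse table of 41214 genes. After a filter on low counts the tests covered 37 of 37 members among 15999 genes in the drug libraries, 37 of 37 among 15872 genes in the knockdown libraries and 36 of 37 among 12225 genes in the mouse libraries.

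Lysosomes are acidified by a proton pump, the V-ATPase, and break down proteins, sugars and lipids with hydrolases that are mostly made as precursors and sorted from the Golgi. Many of the genes for these proteins are targets of TFEB, TFE3 and MITF, basic helix-loop-helix transcription factors that mTORC1 keeps in the cytoplasm when nutrients are plentiful. GPNMB is a target of the same factors and is known from pigment cells, osteoclasts, macrophages and several tumours. Mesothelioma is a tumour of the lining of the pleura, and BAP1, a deubiquitinase that removes ubiquitin from histone H2A, is among the genes it most often loses.

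Poly-A RNA was sequenced from 21 libraries of pleural mesothelioma cells. In the drug experiment, H2731 cells, labelled BAP1 mutated, and H2810 cells, labelled BAP1 wild type, received GSK126, an inhibitor of the histone methyltransferase EZH2, or its solvent DMSO. In the knockdown experiment, MSTO-211H and H2810 cells carried a hairpin against BAP1 (shBAP1) or a random hairpin. Each of these 8 groups has 2 libraries. The mouse libraries are 3 of cells without Bap1, Nf2 and Cdkn2ab (BNC) and 2 of cells without Nf2 and Cdkn2ab (NC), so the loss of Nf2 and Cdkn2ab is common to both. Nothing in the labels says that replicates of a group are separate cultures or animals, so a p-value measures only the spread between these libraries, which may be technical. Each human line comes from 1 tumour, so between H2731 and H2810 the BAP1 status cannot be told apart from all else that differs between those tumours. The dose and duration of GSK126, the sequences of the hairpins and whether mouse cells were pooled from several animals are not given in the labels.

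Library totals ran from 13693927 to 23217215 counts. BAP1 checked the hairpin labels: it had 305 and 413 counts with shBAP1 and 2674 and 2405 with the random hairpin in H2810, and 320 and 402 against 2093 and 2131 in MSTO-211H. EZH2, which GSK126 inhibits as a protein, is not a check of the drug labels; its transcript differed by log2 -0.05 with GSK126 in H2731 and 0.23 in H2810. Markers of leukocytes and macrophages were scarce in the human lines: TYROBP and MARCO had 0 counts in all 16 human libraries, and the summed level of the macrophage markers was at most 3.09 CPM (counts scaled to a common library size). The highest sums in any human library were 7.13 CPM for pan-leukocyte markers, 6.31 CPM for osteoclast markers and 3.30 CPM for pigment cell markers. Of the pigment cell markers, SOX10, MLANA and TYR had 0 counts in the 8 drug libraries and at most 6 in a knockdown library. The sum of 3.30 CPM, in the first random-hairpin library of H2810, was 77 counts. Most of these came from PMEL and DCT, the rest of that marker list. TYRP1, a pigment cell gene outside that marker list, had 3.02 and 3.05 CPM with GSK126 and 1.56 and 1.47 CPM with DMSO in H2731, and 86.6 and 83.8 CPM with GSK126 and 54.4 and 50.6 CPM with DMSO in H2810. Mesothelial markers had summed levels of 1749 and 1581 CPM in H2731 with DMSO and 216 and 222 CPM in H2810 with DMSO.

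The promoters of 6 members with large changes below are shown first, because they hold short motifs that this family of factors recognises. They were chosen after the values and the matches were seen, and 12 of the 25 members with a promoter in the table hold no match. Each is the 150 bases before the transcription start in RefSeq (GRCh38.p14), read 5′ to 3′ on the gene's strand, with capitals for matches to CACGTG (the E-box core), its longer form TCACGTGA (the core of the CLEAR element) and TCATGTGA (a form of the M-box) or its reverse complement TCACATGA. GPNMB lies at chr7:23246625-23246774 on the plus strand, TPP1 at chr11:6619423-6619572 on the minus strand, CTSA at chr20:45891185-45891334 on the plus strand, CTSD at chr11:1763928-1764077 on the minus strand, NEU1 at chr6:31862822-31862971 on the minus strand and SCPEP1 at chr17:56977981-56978130 on the plus strand.
GPNMB: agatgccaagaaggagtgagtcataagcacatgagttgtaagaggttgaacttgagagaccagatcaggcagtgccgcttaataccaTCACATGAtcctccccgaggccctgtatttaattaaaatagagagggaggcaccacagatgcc
TPP1: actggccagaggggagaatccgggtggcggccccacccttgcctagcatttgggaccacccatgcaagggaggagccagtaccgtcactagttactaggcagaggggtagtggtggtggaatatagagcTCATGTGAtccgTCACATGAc
CTSA: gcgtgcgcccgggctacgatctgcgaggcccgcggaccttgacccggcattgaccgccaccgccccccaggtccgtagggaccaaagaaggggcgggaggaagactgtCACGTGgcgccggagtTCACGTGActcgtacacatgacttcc
CTSD: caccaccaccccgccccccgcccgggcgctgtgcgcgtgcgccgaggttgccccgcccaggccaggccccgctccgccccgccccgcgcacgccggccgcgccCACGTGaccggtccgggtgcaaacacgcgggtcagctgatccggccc
NEU1: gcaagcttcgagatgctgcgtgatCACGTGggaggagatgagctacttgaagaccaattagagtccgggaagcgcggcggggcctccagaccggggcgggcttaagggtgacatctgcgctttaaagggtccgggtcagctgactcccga
SCPEP1: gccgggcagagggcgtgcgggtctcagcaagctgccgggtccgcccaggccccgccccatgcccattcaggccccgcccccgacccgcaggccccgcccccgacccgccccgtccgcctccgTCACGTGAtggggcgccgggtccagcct

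The GPNMB promoter holds a single M-box form, whose first base lies 63 bases before the start, and TPP1 holds a pair of them 21 and 9 bases before it. CTSA and SCPEP1 hold the long E-box form within 28 bases of the start, whereas CTSD and NEU1 hold only the core. Both strands were searched from 250 bases before to 50 bases after each start, for the 25 members with a RefSeq window. CACGTG was present in 9 of these 25 members (36%) and in 8.77% of 27305 genes, TCACGTGA, which contains CACGTG, in 6 (24%) and in 1.18%, and TCATGTGA in 5 (20%) and in 1.24%. The 25 members had 41 windows and the 27305 genes 35116, so the members had more sequence per gene in which to match. Genes of the lysosome are also known as targets of this family, so the shares are a description. A match is a description of these letters and not a bound site, and a window without one says nothing of the factors.

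GPNMB was higher with GSK126 in both lines and lower with shBAP1 in both lines. With GSK126 it reached 198 and 209 CPM in H2731, against 83.5 and 83.8 CPM with DMSO. In H2810 it reached 360.4 and 359 CPM with GSK126, against 79.6 and 81.5 CPM with DMSO. The lines thus shared nearly the same level under DMSO, and GSK126 and DMSO libraries did not overlap in either line. With so few libraries per group a lack of overlap, here and below, is a description and no test. It also held for GPNMB between the lines under DMSO, where the log2 difference was 0.05. The log2 fold change was 1.28 ± 0.04 in H2731 and 2.16 ± 0.04 in H2810 (SE), which is 2.44-fold and 4.46-fold, and the difference of these responses, H2731 minus H2810, was -0.87 ± 0.06.

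With shBAP1 in MSTO-211H, GPNMB had 47 and 52 counts (2.26 and 2.29 CPM), against 108 and 112 counts (5.17 and 5.40 CPM) with the random hairpin. In H2810 the levels were 34.4 and 33.5 CPM with shBAP1 and 63.8 and 68.4 CPM with the random hairpin. The groups did not overlap in either line. The log2 fold change was -1.21 ± 0.13 in MSTO-211H and -0.96 ± 0.06 in H2810, where it was -0.87 without the second random-hairpin library. Their difference, MSTO-211H minus H2810, was -0.25 ± 0.14. Between the lines with the random hairpin, GPNMB was 12.5-fold lower in MSTO-211H than in H2810 (log2 -3.64 ± 0.08).

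**Figure D1:**
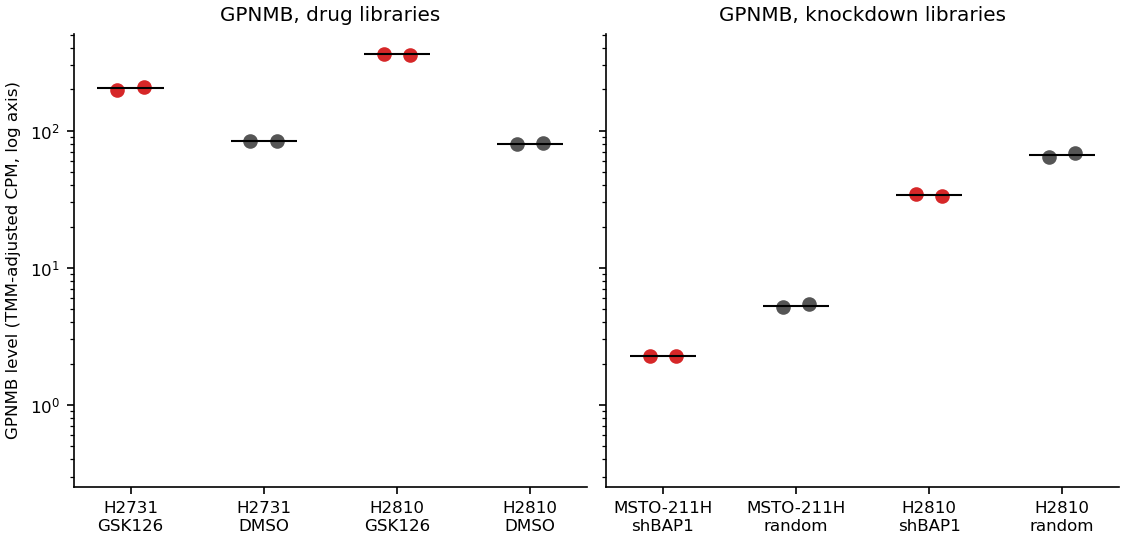
GPNMB level in each human library (TMM-adjusted CPM, log axis), drug libraries on the left and knockdown libraries on the right, with a black line at each group mean; red points are GSK126 or shBAP1, grey points DMSO or the random hairpin. The 2 libraries of a group lie close together, GSK126 lies above DMSO in both lines, and shBAP1 lies below the random hairpin in both lines.

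Levels were also divided by the kilobases of annotated exon, pooled over all transcripts of a gene. This length can exceed that of any single transcript (19384 bases for CTSZ, 15893 for HEXA and 5906 for GPNMB). The order of the members is therefore rough and depends on the annotation. On this scale GPNMB was the 11th highest of the 37 members in H2810 with GSK126 (60.9 ± 0.206 CPM per kb, SD, n = 2) and the 27th with DMSO (13.6 ± 0.222 CPM per kb). In H2731 it was the 10th with GSK126 (34.5 ± 1.27 CPM per kb) and the 19th with DMSO (14.2 ± 0.0279 CPM per kb). In MSTO-211H it was the lowest of all members with shBAP1 (0.385 ± 0.00367 CPM per kb) and the 35th with the random hairpin (0.895 ± 0.0278 CPM per kb). PSAP, the precursor of the saposins that activate sphingolipid hydrolases, was the highest member per kilobase in all H2810 and MSTO-211H groups, with 663 ± 7.95 CPM per kb in H2810 with GSK126 and 537 ± 18.0 CPM per kb with DMSO. In H2731 SQSTM1, an autophagy receptor that carries ubiquitinated cargo, was the highest, with 519.7 ± 3.49 CPM per kb with GSK126 and 440.3 ± 18.5 CPM per kb with DMSO. The transcripts of TFEB and MITF were near the bottom of the order in H2810, at 1.06 ± 0.00955 and 0.986 ± 0.0212 CPM per kb with GSK126.

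GSK126 raised most of the lysosomal members in H2810. At an adjusted p under 0.05, 30 of 37 members were higher with GSK126 and 1 was lower, against 16.3% of all tested genes higher and 12.9% lower; the members' median log2 change was 0.35 and that of all genes 0.00. GPNMB is included in this and the later counts of members. All 37 members were chosen with earlier results of these libraries known, so the counts are a description. The members' summed share of the library's counts was 1.39% and 1.40% with GSK126, against 0.948% and 0.960% with DMSO. In RNA from whole cultures, fewer cells that express a gene and less RNA per cell cannot be told apart.

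Among the peptidases 7 of 8 rose. TPP1, a tripeptidyl peptidase, had 470.0 and 461 CPM with GSK126 and 242 and 236 CPM with DMSO (log2 0.96 ± 0.03, adjusted p = 9.77e-14). CTSD, the main aspartic protease of the lysosome, had 657 and 651 CPM with GSK126 and 343 and 362 CPM with DMSO (log2 0.89 ± 0.04, adjusted p = 1.28e-11). CTSA, a carboxypeptidase that also protects NEU1 and beta-galactosidase, had 599 and 603 CPM with GSK126 and 331 and 339.5 CPM with DMSO (log2 0.84 ± 0.03, adjusted p = 5.11e-13). No library with GSK126 overlapped one with DMSO for these genes. CTSB, CTSL, LGMN and SCPEP1 rose as well (log2 0.62, 0.29, 0.27 and 0.37), and CTSZ had a log2 change of 0.02 ± 0.04.

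Of the glycosidases and sulfatases 7 of 10 rose, led by the sialidase NEU1 (log2 0.79 ± 0.04, adjusted p = 2.61e-11), with 126 and 129.8 CPM with GSK126 and 73.3 and 75.0 CPM with DMSO. HEXA, a subunit of hexosaminidase, and GAA, which degrades glycogen, rose by log2 0.54 and 0.51. GUSB, SGSH and FUCA1 did not pass the test (log2 -0.01, -0.04 and 0.14). GUSB and CTSL have near-identical copies elsewhere in the genome, and the labels do not say how reads that match several copies were counted.

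All 5 lipid-handling members rose. ASAH1, the acid ceramidase, had 321 and 314 CPM with GSK126 and 166 and 168 CPM with DMSO (log2 0.93 ± 0.04, adjusted p = 4.47e-13). NPC2, which binds cholesterol, LIPA, which hydrolyses cholesteryl esters, PSAP and PPT1, a thioesterase, rose by log2 0.40, 0.33, 0.31 and 0.27. Of the membrane proteins 4 of 4 rose (LAMP1, LAMP2, CD63 and the calcium channel MCOLN1, log2 0.28 to 0.44), and of the V-ATPase members 3 of 4 (log2 0.12 to 0.35, ATP6AP1 at 0.06 without a call). SQSTM1 and GRN, the precursor of granulins, rose by log2 0.65 and 0.55.

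The 3 transcription factors did not move together. MITF had 7.43 and 7.21 CPM with GSK126 and 4.40 and 5.86 CPM with DMSO (log2 0.50 ± 0.15, adjusted p = 0.0183), a call that was lost without the first DMSO library (adjusted p = 0.171) or without either GSK126 library (0.076 and 0.0515). TFEB had 7.06 and 7.16 CPM with GSK126 and 5.71 and 6.49 CPM with DMSO (log2 0.21 ± 0.12, adjusted p = 0.213). TFE3 fell and was the 1 member called lower, with 129.8 and 129 CPM with GSK126 and 141 and 151 CPM with DMSO (log2 -0.17 ± 0.04, adjusted p = 0.00321), a call lost without the second DMSO library (log2 -0.12, adjusted p = 0.0684).

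**Figure D2:**
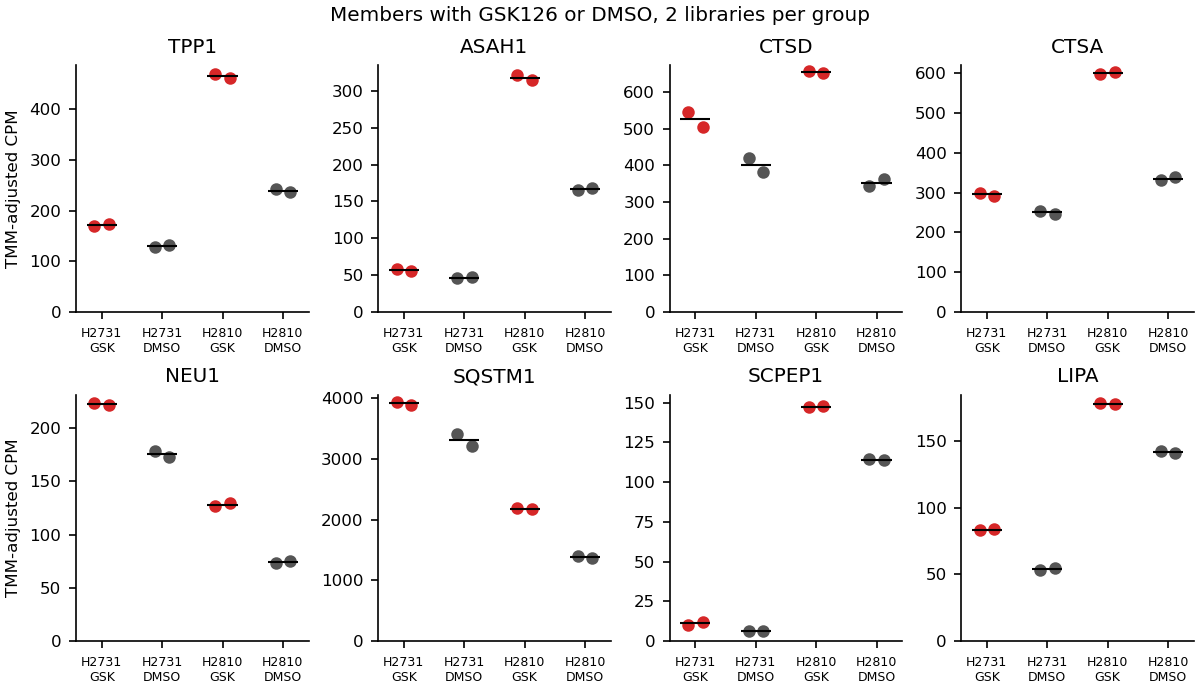
Level of 8 members in the drug libraries (TMM-adjusted CPM, axes from 0), 1 point per library and a black line at each group mean; GSK126 in red is left of DMSO in grey for H2731 and then H2810. TPP1, ASAH1, CTSD and CTSA had the larger log2 fold change in H2810, and SCPEP1 and LIPA in H2731, although in CPM all 6 gained more in H2810; SQSTM1 and NEU1 were higher in H2731 than in H2810 with and without the drug.

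Of a list of other lysosomal hydrolases and related proteins, 22 of 36 tested were higher with GSK126 and 0 lower. It was led by CREG1 (log2 1.47 ± 0.07), a secreted glycoprotein and not a known hydrolase. The whole list is called the other hydrolases below. Of the other V-ATPase subunits 11 of 18 were higher and 0 lower, of the other membrane proteins 11 of 25 and 0, and of the genes for mannose 6-phosphate tagging and sorting 13 of 23 and 0. Over all tested genes 16.3% were higher and 12.9% lower. Of 22 genes of mTORC1 and folliculin, which control the localisation of TFEB and TFE3, 10 were higher and 2 lower. This list of 22, here and below, also counts TFEC, a transcription factor related to TFEB. RRAGD, a Rag GTPase, rose by log2 2.11 ± 0.08 and FNIP2, a folliculin partner, by 1.09 ± 0.05. Of 5 binding partners of GPNMB 3 were lower, namely CD44 (-0.22), the integrin ITGB1 (-0.22) and the sheddase ADAM10 (-0.22). The summed level of the mesothelial markers was 179 and 177 CPM with GSK126 and 216 and 222 CPM with DMSO, that of the fibroblast markers 808 and 829 against 859 and 913 CPM, and that of the endothelial markers 19.3 and 19.6 against 11.2 and 11.5 CPM. Their part in these changes was not tested.

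In H2731, which is labelled BAP1 mutated, most members also rose with GSK126. Of 37 members 24 were higher and 3 lower, against 13.8% of all tested genes higher and 10.9% lower, with a median log2 change of 0.24 over the members and 0.00 over all genes. The members took 1.03% of the counts in both libraries with GSK126, against 0.865% and 0.834% with DMSO.

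After GPNMB, the largest rises in H2731 were those of SCPEP1, a serine carboxypeptidase, and of LIPA, NPC2 and MANBA. SCPEP1 had 10.05 and 12.4 CPM with GSK126 and 6.17 and 6.58 CPM with DMSO (log2 0.82 ± 0.11, adjusted p = 1.18e-05). LIPA had 83.0 and 84.1 CPM with GSK126 and 53.4 and 55.0 CPM with DMSO (log2 0.63 ± 0.04, adjusted p = 2.38e-09). NPC2 had 81.5 and 84.2 CPM with GSK126 and 54.5 and 53.6 CPM with DMSO (log2 0.62 ± 0.04, adjusted p = 3.28e-09). MANBA, the beta-mannosidase, had 14.7 and 16.7 CPM with GSK126 and 10.9 and 10.4 CPM with DMSO (log2 0.56 ± 0.09, adjusted p = 8.32e-05). GSK126 libraries lay above DMSO libraries without overlap for these members.

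By role, 5 of 8 peptidases, 6 of 10 glycosidases and sulfatases, 4 of 5 lipid-handling members, 3 of 4 membrane proteins and 2 of 4 V-ATPase members rose in H2731, as did SQSTM1 and GRN. SGSH, a sulfamidase that degrades heparan sulfate, fell, with 42.1 and 45.9 CPM with GSK126 and 51.8 and 51.6 CPM with DMSO (log2 -0.23 ± 0.05, adjusted p = 0.00339), a call lost without the first GSK126 library (adjusted p = 0.0689). TFEB fell as well, with 6.53 and 6.25 CPM with GSK126 and 9.26 and 8.86 CPM with DMSO (log2 -0.50 ± 0.11, adjusted p = 0.00188). TFE3 fell to 91.8 and 88.9 CPM with GSK126, against 101 and 99.9 CPM with DMSO (log2 -0.15 ± 0.04, adjusted p = 0.0152), a call that was lost in DESeq2 (adjusted p = 0.0893) and without the first DMSO library (0.0704) or the second GSK126 library (0.135). MITF rose to 16.1 and 18.5 CPM with GSK126, against 11.3 and 13.3 CPM with DMSO (log2 0.50 ± 0.10, adjusted p = 0.0011), nearly the same log2 change as in H2810.

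Of the other hydrolases 13 of 36 were higher with GSK126 in H2731 and 0 lower, again with CREG1 (0.62) among the called genes. RRAGD and FNIP2 rose by log2 1.21 and 0.85, and 8 of 22 genes of mTORC1 and folliculin were higher and 1 lower. Of the other V-ATPase subunits 4 of 18 were higher and 1 lower, of the other membrane proteins 8 of 25 and 2, and of the tagging and sorting genes 10 of 23 and 3. Over all tested genes 13.8% were higher and 10.9% lower. All 5 binding partners of GPNMB were higher, with CD44 at 0.35 and ITGB1 at 0.27. The mesothelial marker sum was 1037 and 1026 CPM with GSK126 and 1749 and 1581 CPM with DMSO, and its part in these changes was not tested.

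The members called higher with GSK126 were largely shared: 23 were higher in both lines, 76.7% of the 30 in H2810 and 95.8% of the 24 in H2731. Over all genes the same shares were 35.3% and 41.7%. With 30 and 24 of the 37 members called, much of this overlap follows from those counts alone. In the difference of the responses, H2731 minus H2810, 4 of 37 members were called higher and 16 lower, against 8.08% and 6.66% of all tested genes, and the median was -0.13 over the members and -0.005 over all genes. The share called higher was near that of all genes. By role, the peptidases had 2 higher and 4 lower, and the glycosidases and sulfatases 0 and 4. GPNMB is among the 16.

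The response was smaller in H2731 for ASAH1 (log2 -0.64 ± 0.06, adjusted p = 2.57e-07), CTSA (log2 -0.60 ± 0.05, adjusted p = 3.03e-08) and TPP1 (log2 -0.56 ± 0.05, adjusted p = 1.66e-07). TFEB, which had opposite signs in the lines, differed by log2 -0.72 ± 0.16 (adjusted p = 0.00424; 0.0667 in DESeq2). The response was larger in H2731 for SCPEP1 (log2 0.45 ± 0.12, adjusted p = 0.0126), LIPA (log2 0.30 ± 0.06, adjusted p = 0.00107), CTSL (log2 0.22 ± 0.06, adjusted p = 0.0103) and NPC2 (log2 0.21 ± 0.06, adjusted p = 0.016). CTSL, a cysteine cathepsin, had 107 and 110.2 CPM with GSK126 and 77.1 and 75.0 CPM with DMSO in H2731 and 323 and 333 CPM with GSK126 and 263 and 272 CPM with DMSO in H2810. Of these 4 only LIPA kept its call in every fit with 1 library left out: 1 of the 4 was called without the second GSK126 library of H2731 and 2 without the first GSK126 library of H2810. The responses of MITF and TFE3 differed by 0.01 ± 0.19 and 0.02 ± 0.06, without a call.

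**Figure D3:**
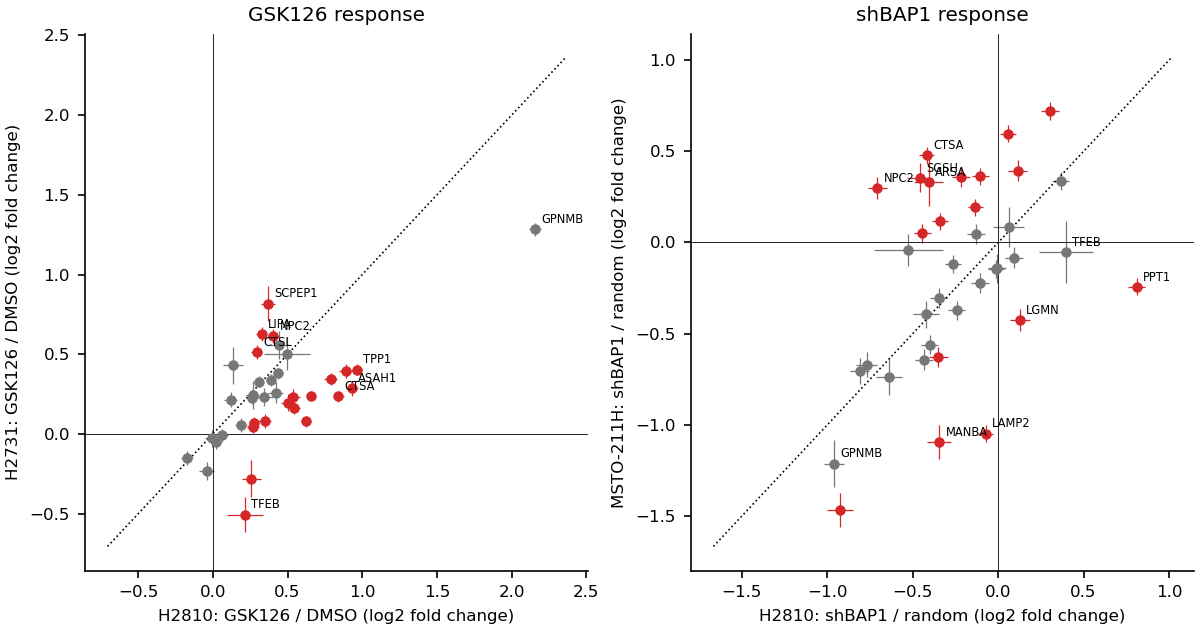
Log2 fold change of each member in 2 lines, with GSK126 over DMSO on the left (H2731 against H2810) and shBAP1 over the random hairpin on the right (MSTO-211H against H2810); bars are SE, the dotted line marks equal responses, and red marks members whose responses differ at an adjusted p under 0.05 (GPNMB, drawn in grey, has no test). Most members lie above 0 on both axes at left, whereas members called in opposite directions such as NPC2 and PPT1 lie in opposite quadrants at right.

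Under DMSO the lines differed at nearly every member. In H2731, 7 members were higher and 29 lower than in H2810, against 41.5% of all tested genes higher and 40.7% lower, with a median log2 difference of -0.76 over the members and 0.01 over all genes. SCPEP1 had 6.17 and 6.58 CPM in H2731 and 115 and 114 CPM in H2810 (log2 -4.16 ± 0.07, adjusted p = 9.78e-21). LGMN, an asparaginyl endopeptidase, had 10.1 and 9.01 CPM in H2731 and 90.1 and 91.8 CPM in H2810 (log2 -3.25 ± 0.06, adjusted p = 4.81e-20). FUCA1, a fucosidase, had 8.39 and 6.58 CPM in H2731 and 36.8 and 33.9 CPM in H2810 (log2 -2.22 ± 0.09), and ARSA, the arylsulfatase that degrades sulfatide, 7.78 and 7.54 CPM in H2731 and 33.5 and 34.4 CPM in H2810 (log2 -2.14 ± 0.08). H2731 was below H2810 in every library for these genes. SCPEP1 stayed far lower in H2731 even with GSK126, at 10.05 and 12.4 CPM.

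The members higher in H2731 were SQSTM1, NEU1, MITF, MCOLN1, TFEB, CTSD and PPT1. SQSTM1 had 3416 and 3219 CPM in H2731 and 1404 and 1367 CPM in H2810 (log2 1.26 ± 0.03, adjusted p = 4.37e-18). NEU1 had 179 and 172 CPM in H2731 and 73.3 and 75.0 CPM in H2810 (log2 1.24 ± 0.04, adjusted p = 2.29e-16). MITF had 11.3 and 13.3 CPM in H2731 and 4.40 and 5.86 CPM in H2810 (log2 1.24 ± 0.13, adjusted p = 5.21e-08). MCOLN1 had 34.8 and 34.9 CPM in H2731 and 23.9 and 21.1 CPM in H2810 (log2 0.64 ± 0.07, adjusted p = 2.38e-08). The lines' libraries did not overlap for these members. TFEB was higher (log2 0.57 ± 0.11, adjusted p = 1.22e-04) and TFE3 lower (log2 -0.54 ± 0.04, adjusted p = 2.72e-10) in H2731. GPNMB differed by log2 0.05 ± 0.04. Of the list of other hydrolases, 8 of 36 were higher and 25 lower in H2731, led by the cathepsins CTSF (-4.26) and CTSC (-3.13). Of the other V-ATPase subunits 10 of 18 were higher and 6 lower. Over all tested genes 41.5% were higher and 40.7% lower.

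**Figure D4:**
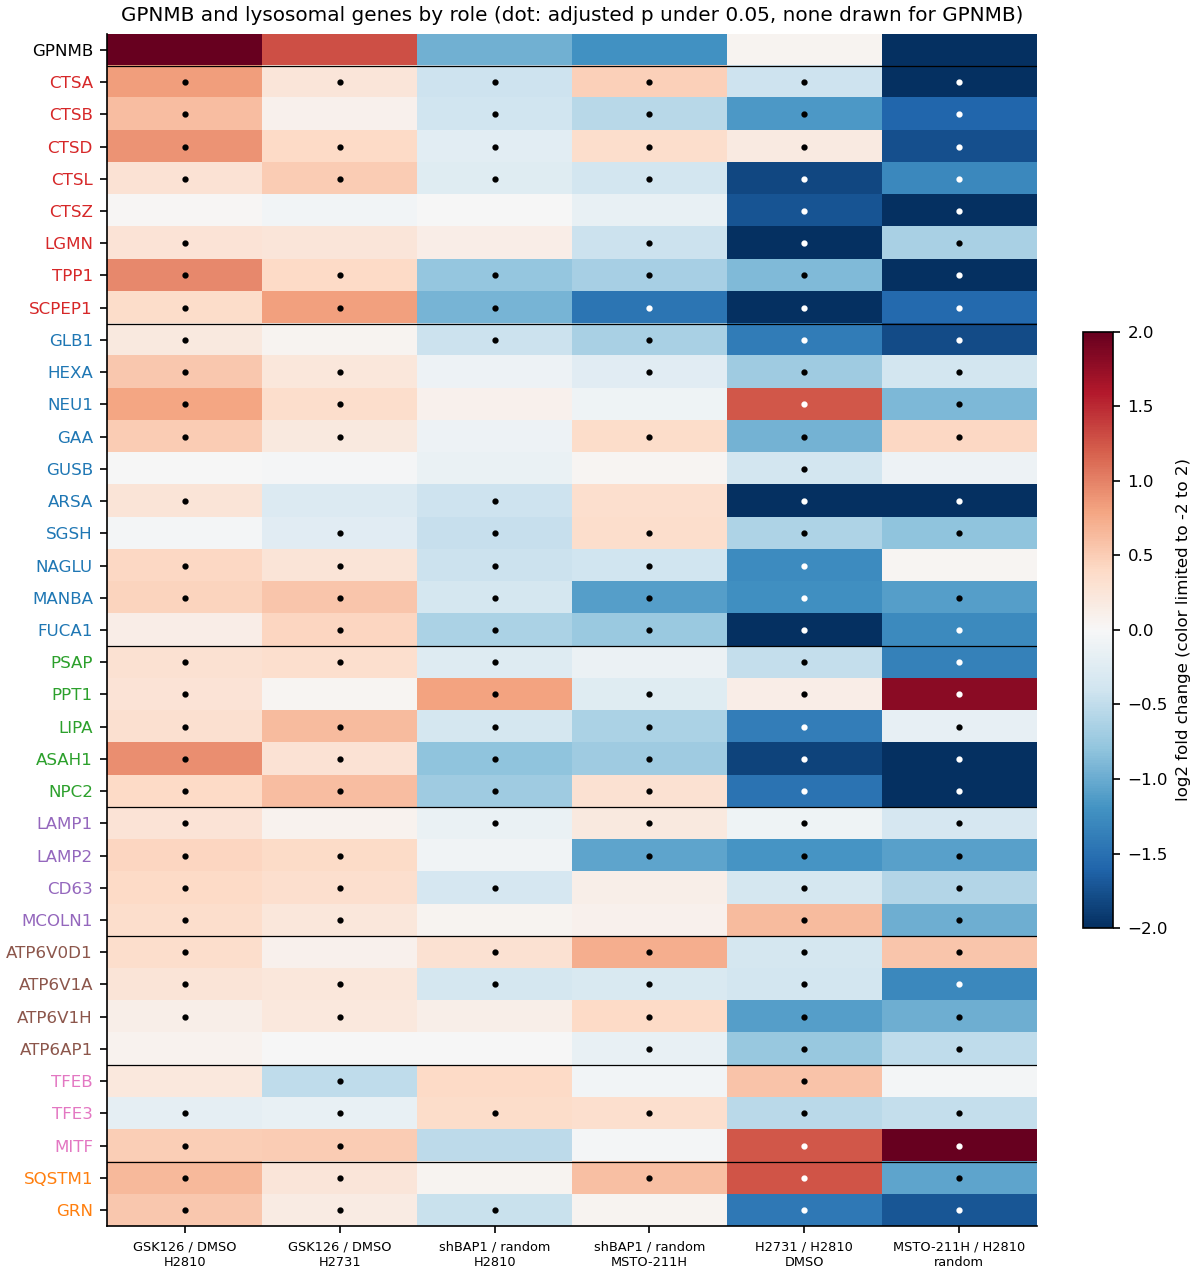
Log2 fold change of the 37 members (rows, name colors by role, black rules between roles) in 6 comparisons (columns), red for higher and blue for lower in the group named first; colors are limited to -2 to 2, and dots mark an adjusted p under 0.05 (none is drawn for GPNMB). The first columns are mostly red, the shBAP1 columns are mixed with more blue than red, and the last columns, which compare lines, are mostly blue, with SQSTM1, NEU1 and MITF among the red in H2731 and MITF and PPT1 among the red in MSTO-211H.

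In H2810, knockdown of BAP1 lowered more lysosomal members than it raised. With shBAP1 21 of 37 members were lower and 3 higher, against 23.3% of all tested genes lower and 22.5% higher, and the median was -0.26 over the members and -0.03 over all genes. Without the second random-hairpin library 6 members were higher. The members took 0.868% and 0.883% of the counts with shBAP1, against 0.992% and 1.06% with the random hairpin.

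After GPNMB, the falls were led by SCPEP1, ASAH1, TPP1 and NPC2. SCPEP1 had 61.6 and 63.4 CPM with shBAP1 and 111 and 126 CPM with the random hairpin (log2 -0.93 ± 0.08, adjusted p = 3.46e-06). ASAH1 had 80.1 and 80.4 CPM with shBAP1 and 138 and 144 CPM with the random hairpin (log2 -0.81 ± 0.06, adjusted p = 1.22e-06). TPP1 had 187 and 179 CPM with shBAP1 and 316 and 308 CPM with the random hairpin (log2 -0.77 ± 0.06, adjusted p = 2.90e-06). For none of these did a shBAP1 library reach the random-hairpin level. NPC2 had 135 and 127 CPM with shBAP1 and 206 and 221 CPM with the random hairpin (log2 -0.71 ± 0.06, adjusted p = 2.46e-06). As for roles, 6 of 8 peptidases, 6 of 10 glycosidases and sulfatases, 4 of 5 lipid-handling members and 2 of 4 membrane proteins fell.

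The 3 members that rose in H2810 were PPT1, TFE3 and the V-ATPase subunit ATP6V0D1. PPT1 had 112 and 109 CPM with shBAP1 and 63.0 and 63.3 CPM with the random hairpin (log2 0.81 ± 0.05, adjusted p = 3.55e-07). TFE3 had 201 and 188 CPM with shBAP1 and 150.3 and 152 CPM with the random hairpin (log2 0.37 ± 0.05, adjusted p = 1.04e-04). ATP6V0D1 had 104 and 100.3 CPM with shBAP1 and 81.6 and 84.2 CPM with the random hairpin (log2 0.30 ± 0.05, adjusted p = 6.48e-04). TFEB had 4.84 and 6.26 CPM with shBAP1 and 4.38 and 3.99 CPM with the random hairpin (log2 0.40 ± 0.16, adjusted p = 0.0591), and it passed under median-ratio (RLE) scaling (0.0422), with no filter on low counts (0.0254) and without the first shBAP1 library (0.0147). MITF had 2.99 and 1.82 CPM with shBAP1 and 3.52 and 3.50 CPM with the random hairpin (log2 -0.53 ± 0.20, adjusted p = 0.052), and it passed with no filter (0.0452), a stricter filter (0.0394), the replicate number as a block (0.0409) and without the first shBAP1 library (0.00389).

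Of the other hydrolases 19 of 35 were lower with shBAP1 in H2810 and 5 higher, led by the cathepsin CTSF (-1.68) and the acid sphingomyelinase SMPD1 (-0.85). Of the other V-ATPase subunits 6 of 18 were higher and 2 lower, of the other membrane proteins 6 of 24 and 6, and of the tagging and sorting genes 7 of 23 and 6, where IGF2R, the mannose 6-phosphate receptor, fell by 1.47 on the log2 scale. Of the genes of mTORC1 and folliculin 6 of 22 were higher and 4 lower, and of the binding partners of GPNMB 0 of 5 and 4, with SDC4 at -0.75. Over all tested genes 22.5% were higher and 23.3% lower. The membrane protein, sorting and mTORC1 lists were near these shares and give no result about those lists. The fibroblast marker sum was 499.6 and 457 CPM with shBAP1 and 784 and 717 CPM with the random hairpin, and the mesothelial marker sum 73.8 and 75.4 against 48.8 and 51.9 CPM. The part of either in these changes was not tested.

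In MSTO-211H the members moved in both directions. With shBAP1 17 of 37 were lower and 10 higher, against 24.5% of all tested genes lower and 21.7% higher, and the share that rose was near that of all genes. The median was -0.12 over the members and -0.02 over all genes. The members took 0.489% and 0.483% of the counts with shBAP1, against 0.472% and 0.464% with the random hairpin.

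Apart from GPNMB, SCPEP1, MANBA, the membrane protein LAMP2 and FUCA1 fell most. SCPEP1 had 16.2 and 13.3 CPM with shBAP1 and 41.6 and 39.6 CPM with the random hairpin (log2 -1.47 ± 0.09, adjusted p = 4.36e-07). MANBA had 7.60 and 8.86 CPM with shBAP1 and 18.2 and 17.1 CPM with the random hairpin (log2 -1.09 ± 0.09, adjusted p = 3.11e-06). LAMP2 had 69.5 and 68.0 CPM with shBAP1 and 144 and 140.0 CPM with the random hairpin (log2 -1.05 ± 0.05, adjusted p = 3.70e-08). All shBAP1 libraries lay below both random-hairpin libraries for these genes. FUCA1 had 8.51 and 8.81 CPM with shBAP1 and 15.3 and 13.6 CPM with the random hairpin (log2 -0.74 ± 0.10, adjusted p = 1.00e-04).

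ATP6V0D1, SQSTM1, CTSA and the V-ATPase subunit ATP6V1H rose most in MSTO-211H. ATP6V0D1 had 207 and 195 CPM with shBAP1 and 121 and 124 CPM with the random hairpin (log2 0.72 ± 0.05, adjusted p = 8.14e-07). SQSTM1 had 1207 and 1191 CPM with shBAP1 and 789 and 796 CPM with the random hairpin (log2 0.60 ± 0.05, adjusted p = 1.47e-06). CTSA had 119.9 and 119 CPM with shBAP1 and 86.4 and 85.2 CPM with the random hairpin (log2 0.48 ± 0.05, adjusted p = 9.02e-06). The groups of these genes did not overlap. ATP6V1H had 56.5 and 55.1 CPM with shBAP1 and 41.0 and 43.97 CPM with the random hairpin (log2 0.39 ± 0.06, adjusted p = 2.23e-04). TFE3 rose to 137 and 137 CPM with shBAP1, against 108 and 108 CPM with the random hairpin (log2 0.34 ± 0.05, adjusted p = 2.00e-04). TFEB had 4.09 and 3.79 CPM with shBAP1 and 4.11 and 4.05 CPM with the random hairpin, and MITF 38.0 and 39.1 CPM with shBAP1 and 41.6 and 37.7 CPM with the random hairpin. Both overlapped between groups and neither passed the test (log2 -0.05 ± 0.17 and -0.04 ± 0.09).

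Of the other V-ATPase subunits 10 of 18 were higher with shBAP1 in MSTO-211H and 2 lower, with ATP6V1F (0.54), ATP6V0E2 (0.57) and ATP6V1G1 (0.52) called. Of the other hydrolases 6 of 35 were higher and 14 lower, of the other membrane proteins 6 of 24 and 9, of the tagging and sorting genes 7 of 23 and 5, and of the genes of mTORC1 and folliculin 10 of 22 and 4. Over all tested genes 21.7% were higher and 24.5% lower, and the tagging and sorting genes were near both shares. Of the binding partners of GPNMB 3 of 5 fell, with syndecan 4 (SDC4) at -1.96 and ITGB1 at -1.27, and CD44 rose by log2 0.55. The mesothelial marker sum was 325 and 316 CPM with shBAP1 and 210.9 and 189.8 CPM with the random hairpin, and the fibroblast marker sum 44.01 and 41.3 against 101 and 96.6 CPM. Their part was not tested.

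Of the members that fell with shBAP1, 12 did so in both lines, 57.1% of the 21 in H2810 and 70.6% of the 17 in MSTO-211H, where the shares over all genes were 48% and 45.7%. They are ASAH1, ATP6V1A, CTSB, CTSL, FUCA1, GLB1, GPNMB, LIPA, MANBA, NAGLU, SCPEP1 and TPP1. ATP6V0D1 and TFE3 rose in both, 66.7% of the 3 in H2810 and 20% of the 10 in MSTO-211H, against 48.7% and 50.7% over all genes. CTSA, CTSD, LAMP1, NPC2 and SGSH fell in H2810 and rose in MSTO-211H. These were 23.8% of the 21 and 50% of the 10, against 7.57% and 8.14% over all genes. All these shares depend on how many of the 37 members were called in each line. They are a description.

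In the difference of the responses, MSTO-211H minus H2810, 12 of 37 members were called higher and 6 lower, against 11.2% and 16.5% of all tested genes, with a median of 0.03 over the members and -0.02 over all genes. The share called lower was near that of all genes and is no result about the members as a set. The response was higher in MSTO-211H for NPC2 (log2 1.01 ± 0.08, adjusted p = 9.36e-06), CTSA (log2 0.89 ± 0.06, adjusted p = 3.28e-06), SGSH (log2 0.81 ± 0.11, adjusted p = 2.51e-04) and ARSA (log2 0.74 ± 0.16, adjusted p = 0.00518). NPC2 had 57.5 and 55.6 CPM with shBAP1 and 47.3 and 44.7 CPM with the random hairpin in MSTO-211H, so that it rose there and fell in H2810. CTSA had 292 and 291 CPM with shBAP1 and 385 and 394 CPM with the random hairpin in H2810, the reverse of its rise in MSTO-211H. SGSH had 53.6 and 55.0 CPM with shBAP1 and 45.5 and 39.4 CPM with the random hairpin in MSTO-211H and 52.5 and 55.2 CPM with shBAP1 and 78.5 and 69.5 CPM with the random hairpin in H2810. ARSA had 28.2 and 28.8 CPM with shBAP1 and 38.8 and 36.7 CPM with the random hairpin in H2810, where it fell, and did not pass the test in MSTO-211H (log2 0.33 ± 0.13).

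The response was lower in MSTO-211H than in H2810 for PPT1 (log2 -1.05 ± 0.07, adjusted p = 1.52e-06), LAMP2 (log2 -0.97 ± 0.07, adjusted p = 2.40e-06), MANBA (log2 -0.75 ± 0.12, adjusted p = 6.59e-04) and LGMN (log2 -0.55 ± 0.08, adjusted p = 6.27e-04). PPT1 had 183 and 191 CPM with shBAP1 and 221 and 222 CPM with the random hairpin in MSTO-211H, where it fell, against its rise in H2810. LAMP2 had 289 and 285 CPM with shBAP1 and 297 and 307 CPM with the random hairpin in H2810, without a call there (log2 -0.07 ± 0.05). LGMN had 40.3 and 36.9 CPM with shBAP1 and 51.9 and 51.7 CPM with the random hairpin in MSTO-211H (log2 -0.42 ± 0.06) and 91.1 and 86.5 CPM with shBAP1 and 78.9 and 83.7 CPM with the random hairpin in H2810 (log2 0.13 ± 0.06). SQSTM1 and GRN were among the 12 members with a higher response in MSTO-211H, and so were the V-ATPase subunits ATP6V0D1 and ATP6V1H.

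In H2810 the members that rose with GSK126 and those that fell with shBAP1 were measured in separate libraries with separate controls. The controls are not a common baseline. Their mesothelial marker sums were 216 and 222 CPM with DMSO and 48.8 and 51.9 CPM with the random hairpin. With DMSO and the random hairpin, PPT1 averaged 146 and 63.2 CPM and TPP1 239 and 312 CPM. Of the members in these 2 sets, 19 were in both, 63.3% of the 30 and 90.5% of the 21, against 32.6% and 22.6% over all genes. As 30 of 37 members were higher with GSK126, most of any set of members would lie among them. The shares over all genes start from far fewer calls and do not account for this. ASAH1 and TPP1 were among the 4 largest changes in both sets, with log2 changes of 0.93 and 0.96 with GSK126 and of -0.81 and -0.77 with shBAP1. ATP6V0D1 and PPT1 rose with both, 6.67% of the 30 with GSK126 and 66.7% of the 3 with shBAP1, against 28.1% and 19.9% over all genes. TFE3 had the opposite order, lower with GSK126 (-0.17) and higher with shBAP1 (0.37). The members were chosen with such changes known, so these shares are a description.

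With the random hairpin MSTO-211H had lower levels of most members than H2810: 30 were lower and 4 higher, against 40.7% of all tested genes lower and 39% higher, with a median of -1.06 over the members and -0.03 over all genes. CTSZ, a carboxypeptidase, had 13.6 and 12.2 CPM in MSTO-211H and 177 and 186 CPM in H2810 (log2 -3.81 ± 0.07, adjusted p = 8.51e-13). ARSA had 7.37 and 5.35 CPM in MSTO-211H and 38.8 and 36.7 CPM in H2810 (log2 -2.57 ± 0.11, adjusted p = 8.66e-10), and NPC2 47.3 and 44.7 CPM in MSTO-211H and 206 and 221 CPM in H2810 (log2 -2.21 ± 0.06, adjusted p = 2.41e-11). CTSA was lower in MSTO-211H too (log2 -2.18 ± 0.05), and none of these genes overlapped between the lines. MITF was higher, with 41.6 and 37.7 CPM in MSTO-211H and 3.52 and 3.50 CPM in H2810 (log2 3.50 ± 0.12, adjusted p = 2.24e-10), and so was PPT1, with 221 and 222 CPM in MSTO-211H and 63.0 and 63.3 CPM in H2810 (log2 1.81 ± 0.05, adjusted p = 2.29e-11). ATP6V0D1 had 121 and 124 CPM in MSTO-211H and 81.6 and 84.2 CPM in H2810 (log2 0.56 ± 0.05), and GAA 204 and 194 CPM in MSTO-211H and 147 and 151 CPM in H2810 (log2 0.42 ± 0.05). These were the 4 members higher in MSTO-211H. Among the knockdown libraries MITF was thus highest, and GPNMB lowest, in those of MSTO-211H. TFE3 was lower in MSTO-211H (log2 -0.48 ± 0.05, adjusted p = 2.49e-06), and TFEB had 4.11 and 4.05 CPM in MSTO-211H and 4.38 and 3.99 CPM in H2810 (log2 -0.04 ± 0.17, adjusted p = 0.84). Of the other hydrolases 5 of 35 were higher and 26 lower in MSTO-211H, with CTSF at -5.86 and the dipeptidyl peptidase DPP7 at 5.25. Of the genes of mTORC1 and folliculin 10 of 22 were higher and 11 lower, both near the shares of all genes, with TFEC at -5.86 ± 0.19.

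The mouse cells compare loss of Bap1 on a background without Nf2 and Cdkn2ab, and the spread between their libraries was large, and BNC library 6 stood apart. It had 8 counts of Msln and 4 of Krt19, mesothelial genes, against 9791 and 11262 of Msln in the other BNC libraries. Its mesothelial marker sum was 133 CPM, against 779 and 846 CPM. That sum held 3023 counts in BNC 6, nearly all from other markers of the list, so these markers were not all lost. Bap1 was 30.5, 33.3 and 44.1 CPM in BNC and 60.2 and 62.0 CPM in NC, without a call (adjusted p = 0.62), and where the deletion lies in the transcript is not given in the labels.

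Gpnmb was near 0 in all mouse libraries but 1: it had 2, 4 and 0 counts in the BNC libraries and 0 and 80 in the NC libraries, and it did not pass the filter. The library with 80 counts, NC 5, also had the highest sums of endothelial markers (49.8 CPM, against at most 9.84 CPM in the others), osteoclast markers (4.04 CPM, against at most 0.399 CPM) and pan-leukocyte markers (0.656 CPM from 13 counts, against at most 0.176 CPM). It was highest as well in mesothelial markers (1728 CPM, against at most 944 CPM). The same held, by less, for macrophage markers (11.3 CPM, against at most 9.87 CPM) and pigment cell markers (0.505 CPM, against at most 0.439 CPM). Its fibroblast marker sum was 77.1 CPM, below the 139 CPM of BNC 6. The part of any of these in the Gpnmb count was not tested. Of the 36 members tested, 0 were called, as were 0% of all tested genes in edgeR; at an unadjusted p under 0.05 edgeR had 5 members (Lgmn, Lipa, Manba, Ppt1 and Mitf) and 823 genes (6.73%). DESeq2 called 2 members, both lower in BNC, Lgmn (log2 -2.60, adjusted p = 3.85e-14) and Manba (log2 -2.42, adjusted p = 0.0161), and 89 genes higher and 213 lower. The members' median log2 change was -0.04 and that of all genes 0.03. Lgmn had 14.6, 14.1 and 9.92 CPM in BNC and 70.1 and 85.5 CPM in NC, and Manba 7.23, 5.88 and 2.94 CPM in BNC and 15.9 and 41.2 CPM in NC. Neither overlapped between groups. Without BNC library 6, edgeR still called 0 members, with 11 members and 2624 genes (22.1%) at an unadjusted p under 0.05.

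Among the transcription factors, Tfeb had 5.04, 6.28 and 9.05 CPM in BNC and 7.17 and 10.1 CPM in NC, Tfe3 70.6, 75.3 and 59.1 CPM in BNC and 55.9 and 69.9 CPM in NC, and Mitf 0.199, 0.598 and 0.263 CPM in BNC and 1.81 and 1.46 CPM in NC. Of these, Mitf did not overlap between groups, at levels under 2 CPM. In the 8 lists of other lysosomal, autophagy, melanosome and partner genes, edgeR called 0 genes in the mouse cells.

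**Figure D5:**
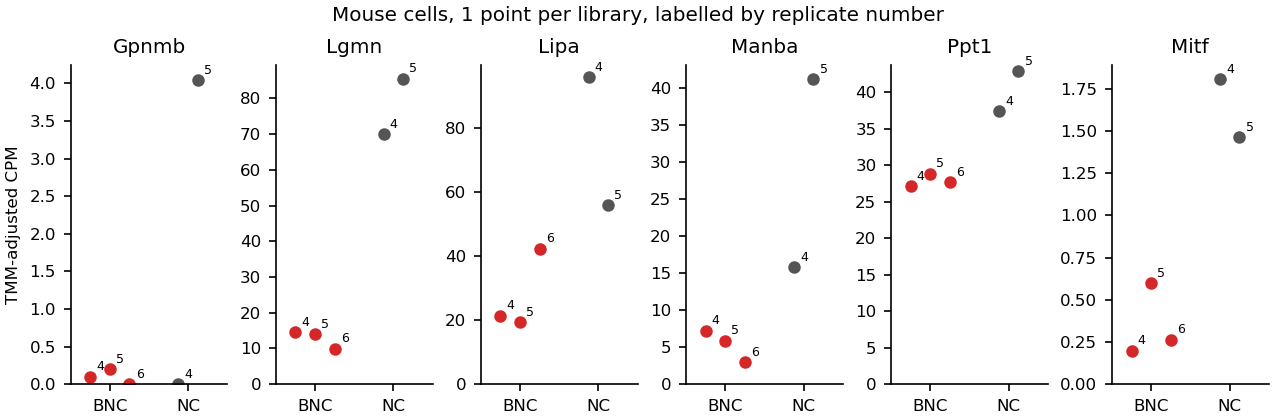
Level of Gpnmb and of the 5 members with an unadjusted p under 0.05 in edgeR in the mouse libraries (TMM-adjusted CPM, axes from 0), 1 point per library labelled with its replicate number, BNC in red left of NC in grey. Lgmn, Lipa, Manba, Ppt1 and Mitf are lower in every BNC library than in every NC library; Gpnmb is at or near 0 in all libraries but NC 5, and none passed the adjusted test in edgeR.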

How the data were processed

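RNA from 21 libraries was read as 65-base single-end reads, per the labels' protocols; neither these nor the processing notes give the strand setting or a human build, so reads of overlapping antisense genes cannot be told apart. The authors deposited raw counts for each Ensembl gene, and TopHat2 2.0.12 and HTSeq are among the tools in the submitters' processing notes. Of the genes found by ID, 99.94% overlapped their GRCh38 position (human) and 99.76% their GRCm38 position (mouse).

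Each table had its own fit in edgeR 4.0.16 (R 4.3.3), with filterByExpr and TMM scaling, and quasi-likelihood p-values were adjusted by Benjamini-Hochberg over every gene in the fit. A gene was called where that value was under 0.05. An SE is the absolute log2 fold change over the root of the F statistic, and a level is a TMM-adjusted CPM. Alternatives were DESeq2 1.42.0, RLE scaling, no filter, a filter of at least 50 counts in 2 libraries, a fit to the compared groups alone, a block for the replicate number, and leaving out single libraries. The script was tested on simulated data. The biological coefficient of variation was 0.539 in the mouse, 0.0311 in the drug and 0.0533 in the knockdown table. No replicates agreed within sampling noise (chi-square per degree of freedom 2.09 or more).

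The members, the other gene lists and the markers were chosen with earlier results of these data known. Given in every library were GPNMB, TFEB, TFE3, MITF and, for each comparison, the 4 called members with the largest rise and the 4 with the largest fall (at a mean log2 CPM of at least 1), some under another comparison of the same libraries. From each other list, at most the 3 called genes with the smallest p were named. Some genes of these lists are not reported here by name. Replicate numbers were not taken as a pairing, because only 2 are shared and same-numbered human libraries correlated between -0.0646 and 0.0979 in their deviations.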

Additional observations from a re-analysis of the deposited data

Results flagged for a closer look

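Responses of named members that differed between the lines by a test of the difference itself are listed here, as values only. For GSK126, H2731 minus H2810, the log2 difference was -0.72 for TFEB, which fell in H2731 and did not pass the test in H2810. It was -0.64 for ASAH1, -0.60 for CTSA and -0.56 for TPP1, each a smaller rise in H2731 than in H2810. The difference was 0.45 for SCPEP1, 0.30 for LIPA, 0.22 for CTSL and 0.21 for NPC2, each a larger rise in H2731.

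For shBAP1, MSTO-211H minus H2810, the log2 difference was 1.01 for NPC2, 0.89 for CTSA, 0.81 for SGSH and 0.74 for ARSA. It was -1.05 for PPT1, -0.97 for LAMP2, -0.75 for MANBA and -0.55 for LGMN. PPT1 rose with shBAP1 in H2810 and fell in MSTO-211H, whereas NPC2, CTSA and SGSH fell in H2810 and rose in MSTO-211H. Where the responses also differ in the lines' starting levels, their part was not tested.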

How the results depend on the processing

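Counts of called members stayed within 1.5 times under RLE scaling, no filter, the stricter filter, the groups compared alone and the replicate block in all comparisons. DESeq2 moved such a count only in the mouse (2 members lower in BNC, against 0). With 1 library left out, the members with a larger GSK126 response in H2731 numbered 1 to 4, those higher with shBAP1 in H2810 numbered 3 to 6, and those lower with GSK126 in H2810 numbered 0 to 1. Small differences changed sign, each without a call. MITF's difference of GSK126 responses was -0.0033 in DESeq2, -0.0071 with the replicate block and -0.23 to 0.18 with 1 library left out. TFE3's was -0.029 to 0.067, and its difference of shBAP1 responses was 0.0012 with the stricter filter and -0.082 to 0.013 with 1 library left out. TFEB ranged from -0.064 to 0.033 between MSTO-211H and H2810 and from -0.10 to 0.0036 with shBAP1 in MSTO-211H, MITF from -0.11 to 0.034 there, and mouse Tfe3 from -0.031 to 0.29. NPC2's larger GSK126 response in H2731 was not called in DESeq2 (adjusted p = 0.0935) or without 4 of the 8 libraries in turn, and CTSL and SCPEP1 lost theirs without 2 of the 8 libraries each. The cause was not tested. With the replicate block 22 members, MITF added, were lower with shBAP1 in H2810 (against 21) and 11 higher in MSTO-211H (against 10), and no other count of members changed.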

Other observations

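Of the autophagy genes other than SQSTM1, 5 of 32 tested were higher and 7 lower with GSK126 in H2810, where 16.3% of all tested genes were higher and 12.9% lower, so the share that rose was near that of all genes. The cargo receptors NBR1 (-0.31), CALCOCO2 (-0.29) and TAX1BP1 (-0.22) were among the lower ones. In H2731, 9 of 32 were higher and 3 lower, against 13.8% and 10.9% of all genes, with WIPI1 (0.63), TAX1BP1 (0.28) and OPTN (0.33) among the higher ones. The log2 difference of the responses, H2731 minus H2810, was 0.50 ± 0.05 for TAX1BP1 and 0.43 ± 0.05 for CALCOCO2. With shBAP1, 9 of 32 autophagy genes were higher and 8 lower in H2810, against 22.5% and 23.3% of all genes, and 5 were higher and 10 lower in MSTO-211H, against 21.7% and 24.5%. The shares with shBAP1 in H2810 are near those of all genes and are no result about autophagy genes.

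Of a list of melanosome and pigment cell genes, some of them targets of MITF in pigment cells, 8 of 16 passed the filter in the drug libraries. With GSK126, 2 of the 8 were higher and 1 lower in H2810, against 16.3% and 12.9% of all tested genes. In H2731 3 were higher and 0 lower, against 13.8% and 10.9%. With so few genes these counts are no result about the list. TYRP1, an enzyme of melanin synthesis, rose with GSK126 in H2810 (log2 0.70 ± 0.05) and in H2731 (0.997 ± 0.19), as did RAB27A, a GTPase of melanosome transport (0.46 and 0.51). MC1R, the melanocortin receptor, fell with GSK126 in H2810 (log2 -0.65 ± 0.18). Under DMSO, TYRP1 was lower in H2731 than in H2810 (log2 -5.10 ± 0.10). With shBAP1, 0 of 7 genes of this list tested were higher and 2 lower in H2810, and 2 were higher and 1 lower in MSTO-211H, too few to set against the shares of all genes given above. All changes named here have an adjusted p under 0.05 in edgeR.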
